A study of Mus musculus with 8 samples.

Results

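Vanin pantetheinases and the enzymes of coenzyme A synthesis form a group of 9 genes among the 24341 in the deposited expression table: the vanins Vnn1 and Vnn3, the pantothenate kinase genes Pank1, Pank2, Pank3 and Pank4, and the later enzymes Ppcs, Ppcdc and Coasy. The group was chosen by gene name, and it was built around Vnn1 because the measured FPKM of Vnn1 in these same buds differed between genotypes. The genotype difference of Vnn1 is therefore given as a description, with no test. The other 8 genes were taken for their place in the pathway, whatever their values.

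Total RNA was sequenced from single mouse pancreas buds at E11.0, about 40 somites. There were 5 wild-type (WT) buds and 3 buds with the genotype Pdx1Creearly;Lats1f/f;Lats2f/f, called Lats1/2-null here, and each bud was a library of its own. LATS1 and LATS2 are the kinases of the Hippo pathway that phosphorylate the coactivators YAP1 and TAZ and keep them out of the nucleus, where they act with TEAD DNA-binding factors. Cre was driven by the Pdx1 promoter, so the floxed alleles were to be deleted in the pancreatic epithelium and not in the cells around it. The study's methods name CD1 mice for WT analyses and the floxed and Cre lines otherwise. They compare mutants with WT or heterozygous littermates. Mesenchyme had been pulled off with forceps before RNA was extracted. Expression is given as FPKM, a count of sequenced fragments scaled to the length of the transcript and to the depth of the library, which allows levels to be compared between genes.

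Coenzyme A carries acyl groups in fatty acid synthesis and oxidation, in the citric acid cycle and in protein acetylation. Cells make it from pantothenate, vitamin B5: a pantothenate kinase phosphorylates the vitamin, PPCS joins the product to cysteine, PPCDC removes a carboxyl group to give phosphopantetheine, and COASY, a bifunctional enzyme, adds the adenylyl and the last phosphate group. Vanins work from the other end. They are extracellular enzymes, anchored at the membrane or secreted, that split pantetheine, a breakdown product of coenzyme A, into pantothenate, which can be used again, and cysteamine, an aminothiol that acts on cellular redox state. VNN1 is abundant in adult liver, kidney and gut, where Vnn1 is a known target of the fatty acid sensor PPAR-alpha.

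The kinase genes also carry a pair of related microRNAs in their introns. Their mature 3p sequences, from RefSeq on GRCm38.p6, are shown because the rows of the kinase genes in the table share their loci with the microRNA rows; capitals mark the seed, bases 2 to 8, and are the same in both.

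mmu-miR-107-3p: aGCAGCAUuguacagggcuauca
mmu-miR-103-3p: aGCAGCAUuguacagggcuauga

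Counted from the 5′ end of mmu-miR-103-3p, they differ by 1 substitution, G22C. mmu-miR-107-3p lies in an intron of Pank1 at chr19:34820700-34820722 on the minus strand. mmu-miR-103-3p is encoded in an intron of Pank2 at chr2:131288103-131288125 on the plus strand and again in an intron of Pank3 at chr11:35782447-35782469 on the plus strand. None of these stretches overlaps an annotated exon of its host. The rows Mir107, Mir103-2 and Mir103-1 were listed at 0 in all 8 libraries, a reading that says nothing about the mature microRNAs, since total RNA libraries of this kind are not made to capture them.

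The 6 bases GGAATG, the core that TEAD factors are known to bind, were searched on both strands of the RefSeq promoter windows of the group, each running from 250 bases before a transcription start to 50 bases after it. Of 32851 mouse promoter windows, 14.7% held it, and of the 27025 genes with windows, 16.6% had it in any of theirs. Windows were held for 7 members, among them 3 for Pank2 and 2 for Pank1, and the letters occurred in windows of Pank1, Pank2 and Ppcs. Vnn1 and Coasy had no window here and were not searched. For Vnn1 the study reports a TEAD binding motif close to the transcription start. The matches are shown in capitals within their surrounding bases, because they stand before genes of which none was called between genotypes.

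Pank2, chr2:131261982-131262011, plus strand: cttctggtactgGGAATGaagtcatagcac
Ppcs, chr4:119422456-119422485, minus strand: gacataggaaagGGAATGaccatagtcact
Pank1, chr19:34879683-34879705, minus strand: ggtgaGGAATGcgctttttatag

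The Pank2 window held the letters once more on the opposite strand, 17 bases upstream of the match shown.  A match is a stretch of letters and not a measured site.

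The floxed genes were checked first. Lats1 was at 16.6, 15.8, 15.7, 14.1 and 15.6 FPKM in WT replicates 1 to 5 and at 12.3, 13.8 and 10.1 FPKM in Lats1/2-null replicates 1 to 3, so every null bud lay below every WT bud. Lats2 was at 14.3, 14.5, 14.0, 14.7 and 11.6 FPKM in WT buds and at 13.4, 12.3 and 11.1 FPKM in null buds, and the groups overlapped. Neither passed the test across all genes (limma, adjusted p = 0.269 for Lats1 and 0.589 for Lats2). The table gives 1 value a gene, summed over exons inside and outside the deleted part and over all cells of the bud. The libraries were of similar depth except WT replicate 5. The size of the steps between low FPKM values put that library at about 7550000 fragments, against 9460000 to 10150000 in the other 7.

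Vnn1 was barely detected in WT buds and well expressed in the null buds. It lies at chr10:23894688-23905343 on the plus strand of GRCm38 and has 1 coding transcript of 2416 bases in 7 exons. Its FPKM was 0.466, 0.914, 0.529, 0.494 and 0.707 in WT replicates 1 to 5 and 14.5, 5.72 and 38.8 in Lats1/2-null replicates 1 to 3. All 3 null buds lay above all 5 WT buds, and the lowest null bud stood well clear of the highest WT bud. By the step size and the transcript length, the WT values rest on about 10.9 to 21.0 fragments a library and the null values on about 330, 140 and 927, so the WT levels are the less precise side. In such bulk samples, fewer cells of a type and less RNA per cell cannot be told apart.

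The mean of Vnn1 was 0.622 ± 0.188 FPKM over the WT buds (SD, n = 5) and 19.6 ± 17.1 FPKM over the null buds (SD, n = 3), a ratio of 31.6. The 3 null buds differed widely among themselves, and replicate 3 set much of the mean: without it the ratio was 16.2, and without null replicate 2, the lowest, it was 42.8. The ratio of the medians was 27.3. Leaving out any 1 WT bud moved the ratio of the means only between 29.7 and 35.8. Of all 13777 genes tested, 7.51% had groups that did not overlap, a share given for reference only, as Vnn1 was selected on this contrast.

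Against all genes tested in the same library, Vnn1 stood between the 2.69 and 7.50 percentile in the WT buds. In null replicates 1, 2 and 3 it stood at the 60.9, 36.8 and 84.2 percentile. It thus moved from the bottom of the expressed range to its middle or upper part, and to a different height in each null bud.

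**Figure D1:**
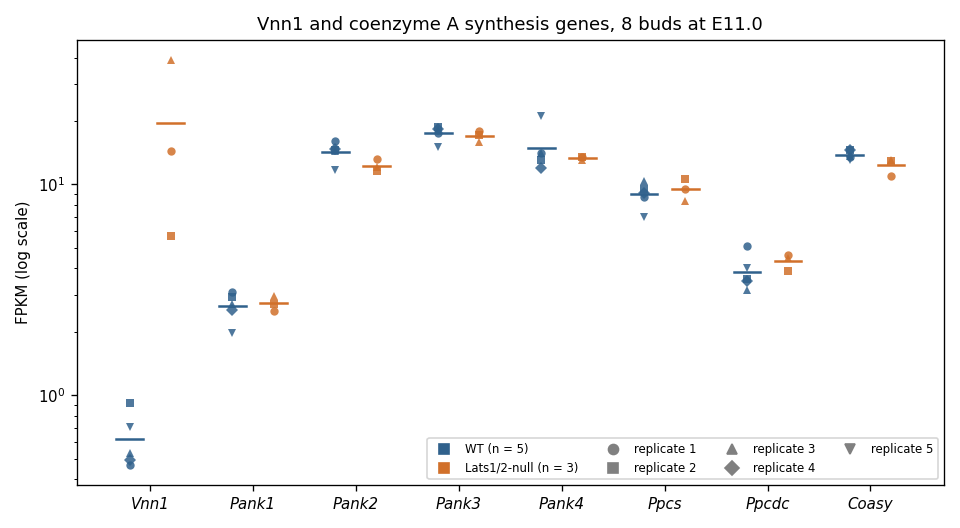
FPKM of Vnn1 and the 7 detected coenzyme A synthesis genes on a log axis, with 1 point per bud, blue for 5 WT and orange for 3 Lats1/2-null, marker shapes for replicate numbers and horizontal lines for group means. Vnn1 goes from 0.466 to 0.914 FPKM in WT to 5.72 to 38.8 in null buds, while the points of the other 7 genes overlap between groups; Vnn3, listed at 0 in every bud, cannot be drawn on a log axis.

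Vnn3, the neighbouring vanin gene, was listed at 0 in all 8 libraries. It lies at chr10:23851462-23869843 on the same strand, 24.8 kb from Vnn1, with a coding transcript of 1811 bases. A floor of 3 fragments in that length is worth 0.163 to 0.219 FPKM, so a level under it would not have been detectable. This floor covers counting error only. The pair of vanins therefore had opposite readings in the null buds, 1 clearly present and the other below detection.

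The genes around the vanins were read as a description of the locus. Within 250 kb of Vnn1 the table listed 22 rows including Vnn1 itself, and 15 of them, the trace amine receptor genes from Taar1 to Taar9, were at 0 in every library. Slc18b1, a vesicular transporter gene 66.7 kb from Vnn1, was at 2.61, 3.01, 2.64, 3.54 and 1.97 FPKM in WT and at 3.31, 2.11 and 3.81 FPKM in null buds, with overlap. Stx7, an endosomal syntaxin gene at the far end of the window, 244 kb away, was at 9.69, 8.77, 7.95, 10.2 and 7.70 FPKM in WT and at 10.9, 10.3 and 12.3 FPKM in null buds. Its null buds all lay just above the WT buds, with a ratio of 1.26 that did not pass the test (limma, adjusted p = 0.350). Rps12, a ribosomal protein gene, had a mean of 1350 ± 148 FPKM (SD, n = 5) in WT and of 1286 ± 69.9 FPKM (SD, n = 3) in null buds. Snora33 and Snord100, small nucleolar RNAs within Rps12, did not pass the test (limma, adjusted p = 0.550 and 0.638). Snora33 was at 75.7, 0, 214, 214 and 48.3 FPKM in WT and at 253, 297 and 425 FPKM in null buds, all above the WT buds, with a ratio of 2.95. Snord100 varied from 949 to 7116 FPKM over the 8 buds, with overlap. No gene in the window other than Vnn1 had a ratio as large as that of Vnn1.

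Levels of cell type markers differed between WT and null buds. More cells of a type and more marker RNA per cell cannot be told apart here. The study lists Sox9, a progenitor marker, among known TEAD targets. The summed FPKM of 9 epithelial markers, which include Cdh1, Epcam, keratins and claudins, ran from 189 to 251 in WT buds and was 449, 398 and 967 in null replicates 1, 2 and 3, and all 9 were higher in null buds (median log2 fold change 1.35). The summed FPKM of 7 pancreatic progenitor markers ran from 67.6 to 115 in WT and was 162, 127 and 293 in null buds, with 6 of the 7 higher. No marker of either list was at 0 in all libraries. These sums had the same order over the null buds as Vnn1, with replicate 3 highest and replicate 2 lowest. That order was common: of the 614 genes whose null buds all lay above the WT buds, 343 had it.

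Vnn1 was then set against the epithelial sum of the same library. The sum can differ through marker RNA per cell too, so this scale is not Vnn1 per epithelial cell. Per 100 FPKM of epithelial markers, Vnn1 was at 0.272 ± 0.0634 FPKM (SD, n = 5) in WT, with a range of 0.211 to 0.368, and at 3.22, 1.44 and 4.01 FPKM in null buds. The null buds still lay above all WT buds on this scale, with a ratio of 10.6, or 8.57 without null replicate 3. The spread between null buds was narrower than in the FPKM of Vnn1 itself.

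**Figure D2:**
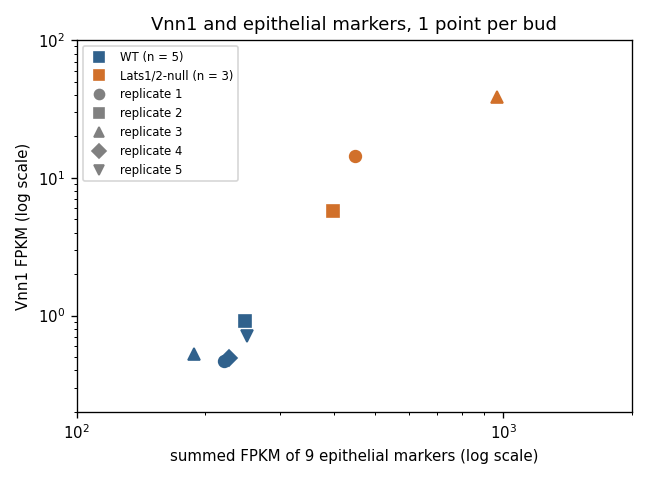
Vnn1 FPKM against the summed FPKM of 9 epithelial markers, 1 point per bud, both axes logarithmic, with colours for genotype and shapes for replicate numbers. The 3 null buds lie at the upper right, in the order of replicates 2, 1 and 3 on both axes, and apart from the 5 WT buds, which sit between 189 and 251 on the marker axis.

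Other cell types were read from the same kind of lists, with higher and lower by the sign of the log2 fold change. Markers of liver, an organ where Vnn1 is abundant in the adult, summed to 113 to 199 FPKM in WT and to 203, 162 and 468 FPKM in null replicates 1, 2 and 3; 10 of the 12 passed the filter, all 10 were higher, and the sums had the order of Vnn1 over the null buds. Leukocyte markers summed to 10.6 to 25.1 FPKM in WT and to 27.0, 19.9 and 17.9 FPKM in null buds, with replicate 1 highest. Neutrophil markers summed to at most 7.09 FPKM in any bud. Mesenchymal markers summed to 1064 to 1191 FPKM in WT and to 944, 1110 and 873 FPKM in null buds, and 9 of 11 were lower. The 2 higher were Vim and Prrx1. Vim made up much of the sums, at 361 to 481 FPKM in WT and at 493, 464 and 602 FPKM in null buds. The sums therefore mix Vim with markers that were mostly lower. These were not lower in every null bud: Tcf21 was at 65.5, 101 and 35.0 FPKM, against 50.8 to 95.2 FPKM in WT. Markers of endothelium summed to 99.3 to 174 FPKM in WT and to 108, 103 and 69.8 FPKM in null buds, and all 7 were lower. Markers of neural crest and neurons summed to 11.8 to 17.1 FPKM in WT and to 17.9, 13.8 and 29.5 FPKM in null buds, again in the order of Vnn1, and all 6 were higher. Red blood cell markers summed to 2620 to 15691 FPKM in WT and to 10113, 7926 and 8873 FPKM in null buds. All 6 were higher on the log2(FPKM + 1) scale, though not all in FPKM: Hbb-bh1 ran from 390 to 2320 FPKM in WT and was at 1372, 1072 and 1126 FPKM in null buds. Stomach and intestine markers summed to 0.728 to 2.22 FPKM in WT and to 1.19, 1.20 and 3.28 FPKM in null buds. Neither list had the order of Vnn1. The part of these cell types in the values of Vnn1 was not tested.

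The 10 genes whose log2(FPKM + 1) followed Vnn1 most closely over the 8 libraries, by Pearson's r, were Klhdc7a (0.998), Eps8l2 (0.992), Adamts15 (0.991), Zfp185 (0.988), St3gal5 (0.987), Zwint (0.986), Clu (0.986), BC021891 (0.986), Cldn3 (0.985) and Sox9 (0.985). All 10 had null buds above WT buds and their highest value in null replicate 3. They were picked for likeness to Vnn1, which has this pattern, so it follows from the choice and is no separate result. Klhdc7a, the nearest, was at 0.122 to 0.311 FPKM in WT and at 2.38, 1.56 and 4.76 FPKM in null buds. Cldn3 and Sox9 are themselves in the epithelial and progenitor marker lists. Of 13776 genes, 100 had r over 0.95 and 315 over 0.9. The points share libraries, genotype and cell make-up, with 8 points to each r. No coenzyme A synthesis gene was near the top: r was 0.45 for Ppcdc, 0.19 for Pank1, 0.04 for Ppcs, -0.26 for Pank4, -0.28 for Pank3, -0.56 for Pank2 and -0.61 for Coasy.

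The synthesis pathway itself was detected in every bud, and none of its genes passed the test between genotypes. Of the 8 other members, 7 passed the filter of a mean of 0.5 FPKM over the 8 libraries, and Vnn3 did not. None of the 7 had an adjusted p under 0.05 by limma on log2(FPKM + 1), with 0.0145% of all genes tested passing (2 genes, Clu and Rassf9). None had an unadjusted p under 0.05 either, where 11.3% of all genes did. None had groups that did not overlap, where 7.51% of all genes did. With 7 genes, counts of 0 are little different from these shares. Their median log2 fold change, null minus WT, was -0.04, and that of all genes tested was -0.01; 3 were higher and 4 lower.

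Pantothenate kinases take the first and rate-limiting step of the pathway and are inhibited by coenzyme A and its thioesters. Pank1 was the lowest of the 4 kinase genes, at 3.10, 2.92, 2.70, 2.54 and 1.98 FPKM in WT and at 2.51, 2.72 and 2.96 FPKM in null buds. The log2 fold change was 0.04 (95% interval -0.27 to 0.35; limma, adjusted p = 0.940). The null buds all lay within the WT range, and the sign of this small difference depended on the setting.

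Pank2, the gene mutated in the human brain disease pantothenate kinase-associated neurodegeneration, was at 16.1, 14.6, 14.4, 14.7 and 11.7 FPKM in WT and at 13.2, 11.6 and 12.03 FPKM in null buds. The null buds lay below 4 of the 5 WT buds, the exception being WT replicate 5. The log2 fold change was -0.20 (95% interval -0.43 to 0.04; limma, adjusted p = 0.532). Without WT replicate 5 it was -0.26, with WT buds at 14.4 to 16.1 FPKM all above the null buds (limma, unadjusted p = 0.00872, adjusted p = 0.337); 10.5% of all genes had groups apart in that comparison. In the table the Pank2 row has a locus of 477 kb that it shares with 12 other rows, among them Rnf24, which overlaps it on the opposite strand.

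Pank3 had the highest mean of the kinase genes, and was above Pank4 in 4 of 5 WT buds and in all 3 null buds. It was at 17.5, 18.8, 18.2, 18.4 and 15.01 FPKM in WT and at 17.97, 17.1 and 16.0 FPKM in null buds. The groups overlapped, with a log2 fold change of -0.04 (95% interval -0.23 to 0.15; limma, adjusted p = 0.905). On the ratio scale of FPKM + 1 the interval runs from 0.851 to 1.11.

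Pank4 encodes a relative that lacks pantothenate kinase activity and has a phosphatase domain. It was at 14.1, 13.1, 14.1, 11.98 and 21.2 FPKM in WT and at 13.4, 13.5 and 13.01 FPKM in null buds. WT replicate 5 stood far above the other 7 buds, which lay together. The log2 fold change was -0.12 (95% interval -0.48 to 0.23; limma, adjusted p = 0.815) with all buds and 0.00 (adjusted p = 0.995) without that bud.

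Taken as a family, the 4 kinase genes summed to 49.4 ± 1.17 FPKM (SD, n = 5) in WT, with a range of 47.6 to 50.8, and to 47.1, 44.9 and 44.0 FPKM in null buds. The sum was thus lower in all 3 null buds by a narrow margin, a description of a sum that was not tested. Pank3 gave 35.6% ± 3.45 (SD, n = 5) of the sum in WT and 37.5% ± 1.04 (SD, n = 3) in null buds. Pank1 gave 5.36% ± 0.838 (SD, n = 5) and 6.04% ± 0.704 (SD, n = 3). The proportions were alike in 7 buds, and WT replicate 5 differed, with 42.5% of its sum from Pank4 against 25.2% to 30.1% in the rest. Without Pank4 the sum was 36.7, 36.2, 35.2, 35.6 and 28.6 FPKM in WT and 33.7, 31.4 and 31.0 FPKM in null buds, which overlapped through WT replicate 5.

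**Figure D3:**
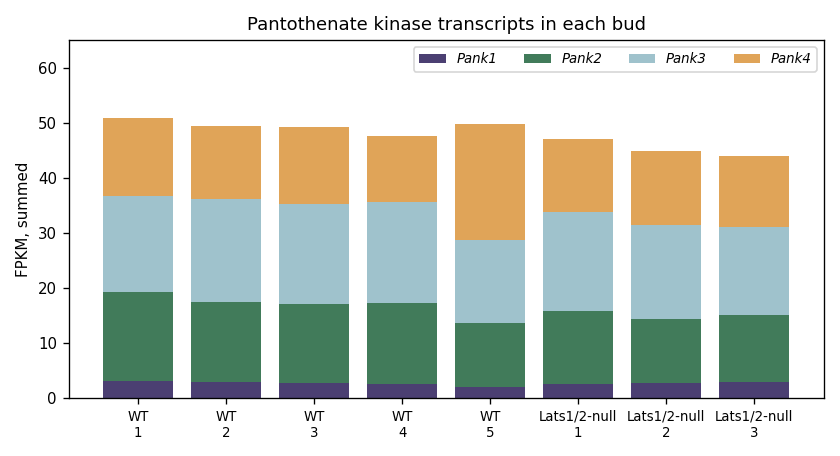
Summed FPKM of the 4 pantothenate kinase genes in each of the 8 buds, on an axis that starts at 0, with a colour for each gene. The totals run from 44.0 to 50.8 FPKM, Pank1 is the thin lowest segment throughout, and the Pank4 segment is enlarged in WT replicate 5.

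Ppcs, whose product couples phosphopantothenate to cysteine, was at 8.76, 9.51, 10.4, 9.14 and 7.02 FPKM in WT and at 9.54, 10.6 and 8.38 FPKM in null buds. The log2 fold change was 0.08 (95% interval -0.21 to 0.36; limma, adjusted p = 0.865). The groups lay over each other, and without WT replicate 5 the difference was 0.00.

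Ppcdc, the decarboxylase, was the lowest of the later enzymes, at 5.08, 3.56, 3.14, 3.48 and 4.01 FPKM in WT and at 4.64, 3.90 and 4.48 FPKM in null buds. All 3 null buds lay within the WT range. The log2 fold change was 0.15 (95% interval -0.17 to 0.47; limma, adjusted p = 0.754).

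Coasy, the last enzyme, varied least between WT buds, with a coefficient of variation of 4.78%. It was at 13.5, 14.5, 13.6, 14.6 and 13.03 FPKM in WT and at 11.01, 12.9 and 13.1 FPKM in null buds. Null replicates 1 and 2 lay below every WT bud and null replicate 3 just above WT replicate 5. The log2 fold change was -0.16 (95% interval -0.34 to 0.03; limma, adjusted p = 0.525), and it was -0.18 (adjusted p = 0.461) without WT replicate 5, when all null buds lay below the WT buds. In that comparison 10.5% of all genes had groups apart.

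**Figure D4:**
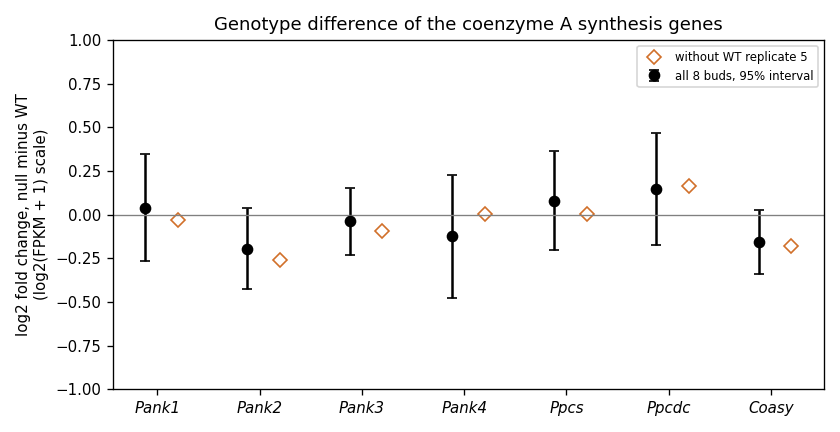
Log2 fold change, null minus WT, on the log2(FPKM + 1) scale for the 7 coenzyme A synthesis genes; black points with bars are the estimates over 8 buds with 95% intervals, and open diamonds the estimates without WT replicate 5. All 7 intervals include 0; the estimates over 8 buds lie between -0.20 and 0.15, and those without WT replicate 5 between -0.26 and 0.16.

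WT replicate 5 thus moved several members at once. It was the lowest WT bud for Pank1, Pank2, Pank3, Ppcs and Coasy and the highest for Pank4, 6 of the 8 detected members, and it was the shallowest library. Its part in these values was not tested. No member other than Vnn1, which was not tested, was called with or without it.

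Ordered by mean FPKM in WT buds, the members ran Pank3 (17.6), Pank4 (14.9), Pank2 (14.3), Coasy (13.9), Ppcs (8.97), Ppcdc (3.86), Pank1 (2.65), Vnn1 (0.622) and Vnn3 (0). The first 4 overlapped with their neighbours in this order over the WT buds, and each of the later steps separated the neighbours in all 5 buds. In null buds the order of the synthesis genes was the same but for Coasy and Pank2, which exchanged places at 12.3 FPKM each. Vnn1 was eighth of 9 in every WT bud, and second, sixth and first in null replicates 1, 2 and 3. Relative to Coasy in the same library, Vnn1 was at 0.0449 ± 0.0131 (SD, n = 5) in WT and at 1.31, 0.443 and 2.95 in null buds. The enzymes after the kinases summed to 26.7 ± 1.47 FPKM (SD, n = 5) in WT and to 26.2 ± 1.101 FPKM (SD, n = 3) in null buds.

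Genes that surround coenzyme A were read in 9 lists of 76 genes, of which 55 passed the filter. None had an adjusted p under 0.05, and 6 (10.9%) had an unadjusted p under 0.05, a share close to the 11.3% of all genes tested. All 6 were higher in null buds: Nudt19, Acsm3, Acsl5, Plin2, Gsr and Nit1. Of these, Acsm3 passed the filter only through its null buds. Over all genes, 866 of the 1553 with an unadjusted p under 0.05 were higher in null buds, 6.29% of those tested. The same 6 were the listed genes whose null buds lay above all WT buds and 1, Slc25a16, had them below, together 12.7% of the 55; over all genes 4.46% lay above and 3.06% below, 7.51% in all. Over the 55 genes, 36 were higher and 19 lower, with a median log2 fold change of 0.08 against -0.01 over all genes.

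Coenzyme A is broken down by NUDT hydrolases. Nudt19, a peroxisomal member, was at 7.39, 7.64, 5.98, 8.07 and 5.02 FPKM in WT and at 10.4, 10.001 and 16.4 FPKM in null buds. Its groups did not overlap, with a log2 fold change of 0.75 ± 0.187 (SE; limma, adjusted p = 0.207). Nudt7, also peroxisomal, and the mitochondrial Nudt8 had log2 fold changes of 0.08 and 0.25, with overlap (adjusted p = 0.914 and 0.604). Nudt19 was the 1 gene of the 3 whose groups were apart, where 7.51% of all genes tested had groups apart.

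Transport of the vitamin and the cofactor gave small differences. Slc5a6, the sodium-dependent carrier that takes up pantothenate and biotin, averaged 2.06 ± 0.278 FPKM over the WT buds (SD, n = 5) and 1.63 ± 0.302 FPKM over the null buds (SD, n = 3). Slc25a16, a mitochondrial carrier, was at 3.37, 3.00, 3.67, 3.87 and 3.33 FPKM in WT and at 2.87, 2.86 and 2.70 FPKM in null buds, the 1 gene of all lists whose null buds lay below all WT buds. Over all genes tested, 3.06% had null buds below all WT buds. The log2 fold change of Slc25a16 was -0.22 and did not pass the test (limma, adjusted p = 0.517). Slc25a42, the mitochondrial coenzyme A carrier, averaged 0.762 ± 0.283 FPKM in WT (SD, n = 5) against 1.16 ± 0.207 FPKM (SD, n = 3).

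Phosphopantetheine from coenzyme A is transferred to acyl carrier domains. Aasdhppt, the transferase, had a log2 fold change of -0.17, its mitochondrial acceptor Ndufab1 -0.11 and fatty acid synthase Fasn 0.10, all with overlapping groups (limma, adjusted p = 0.579, 0.569 and 0.645). Among the 5 tested genes of this list the range was -0.17 to 0.10, narrow on both sides of 0.

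Cysteamine, the other product of vanins, is oxidised to hypotaurine by ADO. Ado averaged 20.7 ± 2.45 FPKM over the WT buds (SD, n = 5) and 17.9 ± 1.90 FPKM over the null buds (SD, n = 3), with overlap (limma, adjusted p = 0.580). Cdo1, which starts the parallel route from cysteine, was at 5.11, 4.87, 4.35, 4.07 and 4.4015 FPKM in WT and at 4.21, 5.68 and 9.35 FPKM in null buds. Its null buds reached from inside the WT range to well above it, replicate 3 being the high one (log2 fold change 0.36, adjusted p = 0.553). The taurine carrier Slc6a6 averaged 23.9 ± 2.01 FPKM in WT (SD, n = 5) against 25.2 ± 0.733 FPKM (SD, n = 3).

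Vanins belong to the nitrilase superfamily with biotinidase. Of these relatives, Nit1, an amidase that repairs deaminated glutathione, was at 12.4, 12.9, 11.4, 10.2 and 10.2 FPKM in WT and at 14.4, 12.98 and 15.7 FPKM in null buds. The groups were apart by a narrow margin (log2 fold change 0.31, limma, adjusted p = 0.325). Btd, the biotinidase gene, and Nadsyn1, of NAD synthesis, had log2 fold changes of 0.11 and -0.05 with overlap, and both changed sign in other settings.

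Acyl-CoA synthetases attach fatty acids to coenzyme A. In this list 10 of the 12 tested genes were higher, with a median log2 fold change of 0.09. Acsm3, a medium-chain synthetase, was at 0.439, 0.410, 0.498, 0.543 and 0.256 FPKM in WT and at 1.44, 1.36 and 2.201 FPKM in null buds, a ratio of 3.88. Its groups were well apart (log2 fold change 0.89 ± 0.156 (SE), limma, unadjusted p = 0.000284, adjusted p = 0.109), though at low levels. Its WT mean of 0.429 FPKM was under the filter of 0.5 FPKM, and it was tested only through its higher null buds. Its values are therefore a description and no support for a difference. Acsl5, a long-chain synthetase, was at 9.71, 8.57, 9.51, 10.98 and 8.44 FPKM in WT and at 13.4, 11.9 and 19.9 FPKM in null buds (log2 fold change 0.60, adjusted p = 0.233). Acly, which makes acetyl-CoA from citrate, averaged 78.8 ± 4.35 FPKM in WT (SD, n = 5) against 88.6 ± 8.57 FPKM (SD, n = 3), with overlap.

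Among acyl-CoA thioesterases, which release coenzyme A again, 0 of the 8 tested genes had groups apart, where 7.51% of all genes did, and Acot2, Acot7 and Acot11 had log2 fold changes of -0.31, 0.21 and 0.20 (limma, adjusted p = 0.638, 0.647 and 0.675). PPAR-alpha targets showed no common direction. Ppara itself was under the filter, at 0.208 FPKM in WT and 0.277 FPKM in null buds on average, Cyp4a10, Cyp4a14, Fgf21 and Fabp1 were listed at 0 in all 8 libraries, and of 7 tested genes 3 were higher and 4 lower. Plin2, the lipid droplet coat protein gene, was at 16.9, 17.8, 16.6, 21.6 and 16.4 FPKM in WT and at 23.7, 22.1 and 28.2 FPKM in null buds, and WT replicate 4 came close to the lowest null bud (log2 fold change 0.45, adjusted p = 0.207). Cpt1a, of mitochondrial fatty acid import, had a log2 fold change of -0.32 and Acadm, of medium-chain oxidation, one of 0.13, with adjusted p of 0.495 and 0.612 by limma.

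Glutathione shares cysteine with the coenzyme A route. Gsr, glutathione reductase, was at 16.4, 16.1, 19.5, 19.3 and 17.5 FPKM in WT and at 22.0, 21.8 and 23.8 FPKM in null buds. Its groups were apart (log2 fold change 0.33 ± 0.0834 (SE), limma, adjusted p = 0.209). Ggct and Chac2, of glutathione breakdown, had log2 fold changes of 0.35 and 0.29 with overlap (adjusted p = 0.533 and 0.502). Of 8 tested genes in this list 6 were higher, with a median of 0.11. Null replicate 3 was the highest of the null buds for each of the 6 genes with an unadjusted p under 0.05, as it was for Vnn1 and for the epithelial markers; the part of cell make-up in these differences was not tested.

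**Figure D5:**
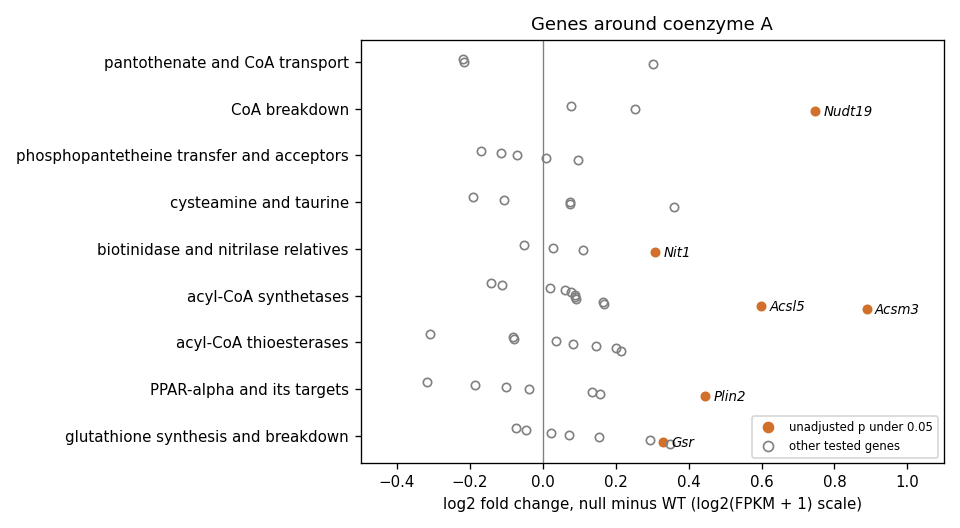
Log2 fold change, null minus WT, on the log2(FPKM + 1) scale for the 55 tested genes of 9 lists around coenzyme A, 1 point per gene and 1 row per list; filled and named points have an unadjusted p under 0.05 and open points do not. The 6 filled points all lie above 0, and none passed the adjusted threshold.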

How the data were processed

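Members and lists were chosen with earlier results of these data known. The authors trimmed reads with cutadapt 1.12, aligned them to GRCm38 (mm10) with TopHat2 2.1.0 and computed FPKM per gene with Cuffdiff 2.2.1; the deposited FPKM of the 8 libraries do not share 1 distribution, although the study's methods name quantile normalization. Libraries were stranded and depleted of ribosomal RNA. Values were used as deposited. limma 3.58.1 in R 4.3.3 (lmFit, eBayes with trend) was fitted to log2(FPKM + 1) of the 13777 genes whose mean reached 0.5 FPKM, with Benjamini-Hochberg adjustment over all of them and a threshold of 0.05. The pseudocount understates changes of low genes. The fit was tested on simulated data.

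The fragments behind a value were estimated from the FPKM of single-exon genes of at least 1500 bases with GENCODE M21 lengths: for each library the step that the most genes met within 2% was taken, 15 to 21 of 68 to 83 genes, against 3 to 4 at the median step. Fragment numbers are approximate and cover counting error only. Named genes are all members, 3 genes with the smallest p in each related list, the 10 nearest to Vnn1, genes within 250 kb of it, and Lats1 and Lats2. Each bud is its own embryo's sample by the study's methods. No library was left out.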

Additional observations from a re-analysis of the deposited data

Results flagged for a closer look

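In 3 of 35 genes examined, 1 WT bud stood apart from the other 4 by a gap of more than 0.71 of the group's range; chance flags about 1 in 20. Pank4 was at 21.18 FPKM in WT replicate 5, with a gap of 0.769 of the range. Ado was at 16.42 FPKM in WT replicate 5, the lowest of the WT buds, with a gap of 0.782. Plin2 was at 21.63 FPKM in WT replicate 4, the highest of the WT buds, with a gap of 0.727. WT replicate 5 was also the shallowest library, and its part in the values of Pank4 and Ado was not tested.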

How the results depend on the processing

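No member other than Vnn1, which was not tested, was called in any of 16 alternatives. Genes called over the whole table numbered 2, and they numbered 18 with a pseudocount of 0.1, 174 with array weights, 1 without the mean-variance trend, and 0 to 69 with 1 library left out, 69 being without Lats1/2-null replicate 2. Members at an unadjusted p under 0.05 numbered 0, and 2 with array weights (Pank2 and Coasy); leaving out 1 library gave 0 to 1 (Pank2, without WT replicate 5). Genes of the related lists called numbered 0, and 2 with array weights, Acsm3 (log2 fold change 0.785) and Plin2 (0.412). Acsm3 had passed the filter only through its null buds. At an unadjusted p under 0.05 the lists held 6 genes, 14 with array weights, and 5 to 10 with 1 library left out, 10 being without WT replicate 5 or without null replicate 2. The share of all genes at that level is given for the main setting only, 11.3%. Counts of members and listed genes in the alternatives therefore have no share to be set against. Same-numbered WT and null buds had correlations of their deviations of 0.0855, -0.0969 and 0.0685, so the numbers were not taken as pairs; with the replicate block 1 gene was called over the table and 1 member, Pank2, had an unadjusted p under 0.05, and Pank1 (-0.0662), Ppcs (-0.0105) and Nudt7 (-0.0244) changed sign.

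Other small log2 fold changes turned too. With 1 library left out, the ranges were -0.031 to 0.0842 for Pank1, -0.0914 to 0.00335 for Pank3, -0.191 to 0.00186 for Pank4, -0.0574 to 0.229 for Nudt7, -0.00599 to 0.269 for Btd and -0.175 to 0.0551 for Nadsyn1. The sign turned for Pank1 without WT replicate 5 or null replicate 3, for Pank3 and Btd without null replicate 3, for Pank4 without WT replicate 5, and for Nudt7 and Nadsyn1 without WT replicate 5 or null replicate 2. Pank1 was -0.00796 with quantile normalization and -0.0821 with array weights, where Btd was -0.156. The ratio of mean FPKM, null over WT, was 0.894 for Pank4, 0.955 by medians and 0.852 to 0.999 with 1 library left out, and 1.13 for Ppcdc, or 1.26 by medians. The causes were not tested. The Vnn1 levels of WT buds rest on few fragments, and 3 null buds that differ widely limit its ratio.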
